A study of Mus musculus with 28 samples.

Results

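The genes described here are the endogenous opioid system of the mouse, with 4 genes for the peptide precursors (*Penk*, *Pdyn*, *Pomc*, *Pnoc*) and 4 for the receptors (*Oprm1*, *Oprd1*, *Oprk1*, *Oprl1*). These 8 genes were chosen by name, with earlier results of these data known, from the 55450 genes of the annotation, 21951 of which are protein-coding. All 8 were found in the annotation. H3K4me3, a histone mark of active and poised promoters, and H3K27me3, the mark that Polycomb repressive complexes deposit at silenced genes, were profiled by CUT&RUN (CnR), in which an antibody-guided nuclease releases the chromatin around a mark.

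Nuclei came from the striatum of mice of both sexes, about 8 weeks old, on the C57BL/6J background. The A2a nuclei were from Sun1-sfGFP;A2a-cre animals and the D1 nuclei from Sun1-sfGFP;Drd1-cre animals. Every mouse carried the Sun1-sfGFP allele, which tags the nuclear envelope where Cre has acted, and tagged nuclei were pulled down with an antibody against GFP (INTACT). A2a-cre marks medium spiny neurons (MSNs) of the indirect pathway and Drd1-cre those of the direct pathway, so a tagged nucleus is one in which the driver was active at some time, and a share of untagged nuclei in the pull-down is possible. Each of the 4 deposited lists pools 2 replicates of 1 cell type and 1 mark, 8 of the 28 samples in all, so no value below has a spread between mice and no difference between A2a and D1 was tested. Intervals are exact Poisson or Wilson intervals at the 95% level and cover counting error only.

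For the D1 H3K27me3 samples the labels disagree with each other. Their titles and cell type name D1, while their source name gives A2a. They are treated as D1 here, and each H3K27me3 contrast below depends on that reading. In the list so read, *Adora2a*, which encodes the adenosine receptor that defines A2a MSNs, had 27.9 kb under islands within 25 kb of its transcription start site (TSS), against 0 kb in the A2a list. The promoter islands of *Drd1*, which encodes the dopamine receptor that defines D1 MSNs, held 1958 reads in A2a and 86 in D1. All 4 listed A2a neuron markers (*Adora2a*, *Drd2*, *Gpr6*, *Sp9*) had more promoter island reads in D1, or an island there alone. Of 6 listed D1 neuron markers, *Drd1*, *Tac1*, *Isl1*, *Ebf1* and *Eya1* had more in A2a. *Sfxn1* went the other way, with no island in A2a and 99 reads in D1. The marker lists, like the opioid genes, were chosen with earlier results of these data known.

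Neurons of the striatum release opioid peptides as cotransmitters. Enkephalins, cut from the product of *Penk*, are classical markers of indirect pathway neurons, and dynorphins, cut from the product of *Pdyn*, are classical markers of direct pathway neurons. The receptors are coupled to inhibitory G proteins, and enkephalins act chiefly on the delta and mu receptors, dynorphins on the kappa receptor and nociceptin on its own receptor.

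A promoter was taken as 2 kb upstream to 1 kb downstream of the annotated 5′ end of a gene, and a mark was called there when a region of its list reached into this window. An H3K4me3 promoter peak was present at 5 of the 8 opioid genes in A2a and at the same 5 in D1 (*Penk*, *Pdyn*, *Oprd1*, *Oprk1*, *Oprl1*). Over all protein-coding genes the share was 58.2% in A2a, 55.8% in D1 and 55.6% in both lists. An H3K27me3 promoter island was present at 6 opioid genes in A2a, where 21.6% of protein-coding genes had one, and at 4 in D1, where 15.3% did. *Penk*, *Pdyn* and *Pnoc* had an island in both lists (14.3% of protein-coding genes). *Pomc*, *Oprm1* and *Oprk1* had one in A2a alone (7.38%), and *Oprd1* had one in D1 alone (1%).

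Both marks lay at the promoters of *Penk*, *Pdyn* and *Oprk1* in A2a (3 of 8, beside 9.53% of protein-coding genes) and of *Penk*, *Pdyn* and *Oprd1* in D1 (3 of 8, beside 5.56%). An island without a promoter peak was the state of *Pomc*, *Pnoc* and *Oprm1* in A2a (3 of 8, beside 12.1% of protein-coding genes) and of *Pnoc* in D1 (1 of 8, beside 9.71%). No opioid gene lacked both marks in A2a, where 29.7% of protein-coding genes did, and *Pomc* and *Oprm1* lacked both in D1, where 34.5% did. For *Oprm1* these states hold for its annotated 5′ end only. An H3K4me3 peak further inside the gene covered 7 of its 9 annotated transcript starts in both lists. The combination of marks at the promoter differed between A2a and D1 at 4 of the 8 opioid genes (*Pomc*, *Oprm1*, *Oprd1*, *Oprk1*), and at 10.8% of protein-coding genes. It differed for 3 of the 4 receptors and 1 of the 4 precursors. With 8 genes chosen for their function these shares are descriptions of the set.

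The lists differ in size, which bears on each side-by-side value. The A2a H3K4me3 list held 22551 peaks and the D1 list 20080, and for genes with a promoter peak in both lists the −log10 q-value in A2a was a median of 1.55 times that in D1. The A2a H3K27me3 list held 60191 islands over 301.0 Mb with 73.4 reads per kb, and the D1 list 45760 islands over 184.1 Mb with 42.8 reads per kb. Promoter islands present in both lists held a median of 2.60 times as many reads in A2a and were a median of 1.40 times as long. The smallest number of reads in any island was 36 in A2a and 27 in D1. All 6 markers of striatal projection neurons had an H3K4me3 promoter peak and none an island in either list. An H3K4me3 promoter peak was listed for 1 of 4 astrocyte markers in each list, for 1 of 4 microglial markers in A2a and none in D1, for 3 of 5 oligodendrocyte markers in each list and for none of 5 interneuron markers. The part of other cells in the values below was not tested.

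**Figure D1:**
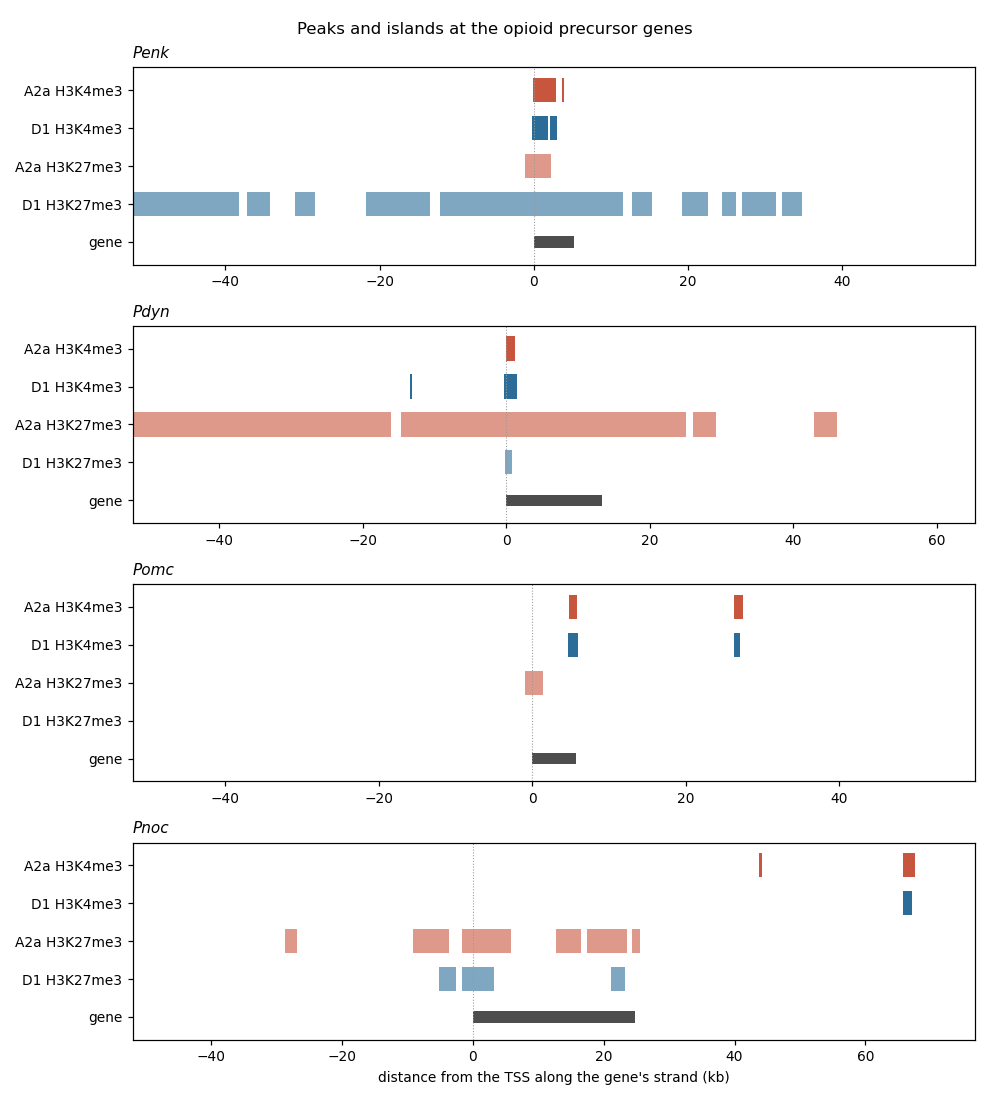
Peaks and islands around *Penk*, *Pdyn*, *Pomc* and *Pnoc* by distance from the TSS in kb along the strand of the gene, with H3K4me3 peaks in full colour, H3K27me3 islands in pale colour (A2a red, D1 blue) and the gene as a grey bar. Regions are cut at the edge of the plot. Islands spread over *Penk* in D1 (64.4 kb, against 3.40 kb in A2a) and over *Pdyn* in A2a (80.0 kb, against 1 kb in D1).

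*Penk* (proenkephalin, ENSMUSG00000045573.9, chr4:4133531-4138819 of mm10, minus strand) carried both marks at its promoter in both cell types, and its H3K27me3 was far wider in D1. In A2a a single island of 3.40 kb held 200 reads (173.2 to 229.7) and ran from −1.18 to 2.22 kb, counted from the TSS along the strand of the gene. In D1 the promoter island was 23.8 kb long and held 1365 reads (1293.5 to 1439.4), longer than 99.2% of the islands in its list. It covered the whole gene, whereas the A2a island covered 42.0% of it. Going outwards from the promoter, D1 had 9 further islands within 50 kb, among them one of 8.40 kb with 460 reads from −21.8 to −13.4 kb and one of 24.4 kb with 1658 reads from −62.6 to −38.2 kb. A2a had no further island there.

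Within 25 kb of the *Penk* TSS, islands covered 3.40 kb in A2a and 38.8 kb in D1, or 6.80% and 77.6% of the window. The difference, A2a minus D1, was −35.4 kb, and over all protein-coding genes it had a median of 0 kb, with 95% of genes between −2.20 and 14.6 kb. Only 5 of 21951 genes had a difference this low or lower, namely *Gpr6*, *Upb1*, *Ankk1*, *Gm4894* and *Penk* itself. The other 4 were picked out after their values were seen. The D1 promoter island held 6.83 times the reads of the A2a island over 7 times the length, so that the reads per kb were nearly equal (58.8 in A2a, 57.4 in D1). For most genes the A2a islands were the denser ones, by a median of 1.88 times, and only 0.639% of genes with an island in both lists had a lower ratio of A2a to D1 density than *Penk* (1.03).

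H3K4me3 covered the start of *Penk* in both cell types. The A2a peak ran from −0.09 to 2.95 kb (3.04 kb, longer than 98.0% of the A2a peaks), with a fold enrichment of 3.06 over the local background and a −log10 q of 55.7. The D1 peak was 2.07 kb long, with a fold enrichment of 3.67 and a −log10 q of 35.1. By −log10 q these peaks were near the middle of their lists, above 48.7% of the A2a and 43.3% of the D1 peaks, and by fold enrichment they were low, above 4.19% and 11.7%. The A2a to D1 ratio of −log10 q was 1.59, close to the median of 1.55. The ratio of fold enrichment was 0.833, with 6.88% of genes with a peak in both lists lower. The summit lay 1.33 kb after the TSS in an intron in A2a and 81 bp after it in an exon in D1. A weaker second peak inside the gene followed in each list, from 3.62 kb in A2a (0.375 kb long, fold enrichment 1.5) and from 2.16 kb in D1 (0.836 kb long, 2.14). These second peaks lie at different places. The D1 one ended at 2.99 kb and lay almost wholly within the span of the A2a promoter peak. The island covered 76.0% of the promoter peak in A2a and all of it in D1. The non-coding transcript *A830012C17Rik* also starts under the same peak and island, and its signal cannot be told apart from that of *Penk*.

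*Pdyn* (prodynorphin, ENSMUSG00000027400.11, chr2:129686565-129699844, minus strand) showed the opposite arrangement. In A2a its promoter island was 39.6 kb long and held 4641 reads (4508.4 to 4776.5), running from −14.6 to 25 kb and over the whole gene. A further island of 47.4 kb with 5743 reads ran from −63.4 to −16.0 kb, and 4 islands in all held 10819 reads and covered 70.7% of the gene and its 50 kb flanks. In D1 a single island of 1 kb with 50 reads (37.1 to 65.9) lay at the promoter. Only 1.87% of the D1 islands held fewer reads, and no other island lay within 50 kb.

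Within 25 kb of the *Pdyn* TSS, islands covered 48.6 kb in A2a and 1 kb in D1. The difference of 47.6 kb was the largest of all 21951 protein-coding genes, ahead of *Tac1* (43.0 kb), the gene of the precursor of substance P and another marker of D1 neurons. The promoter islands differed 92.8 times in reads and 39.6 times in length. Density moved the same way, at 117.2 reads per kb in A2a and 50.0 in D1, a ratio of 2.34 beside the median of 1.88.

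H3K4me3 at *Pdyn* was the weaker in A2a, against the trend of the lists. The A2a peak was 1.26 kb long with a fold enrichment of 5.08 and a −log10 q of 10.2, above 18.4% of its list. The D1 peak was 1.74 kb long with a fold enrichment of 5.96 and a −log10 q of 39.0, above 45.1% of its list. The ratio of −log10 q, A2a over D1, was 0.262, and 0.0983% of the 12204 genes with a peak in both lists had a lower one. By fold enrichment the ratio was less extreme, at 0.853 with 9.39% of these genes lower. D1 alone had a small peak with its summit at −13.2 kb (0.271 kb, fold enrichment 4.97, −log10 q 9.17), outside any exon or intron of the gene. In A2a the whole promoter peak lay under the island and in D1 57.5% of it did.

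*Penk* and *Pdyn* thus carried both marks at the promoter in both cell types, with H3K27me3 islands of very unequal extent at each gene and, at *Pdyn*, unequal −log10 q of H3K4me3 as well. The call at *Pdyn* in D1 rests on the 1 kb island with 50 reads and is lost with islands of at least 2 kb. The marks come from separate libraries, and the paper states that its method cannot place them on the same nucleosome. By the 4 values of each promoter (−log10 q and island reads in each list, as percentiles), the genes most like *Penk* were *Drd2*, *Bcat1* and *Vwc2l*, with mean differences of 1.74, 2.15 and 2.60 percentile points. Those most like *Pdyn* were *Drd1*, *Isl1* and *Tac1*, at 1.46, 2.31 and 2.41 points. *Drd2* and *Drd1* encode the dopamine receptors that define the indirect and direct pathways. The promoter islands of *Drd2* held 160 reads in A2a and 559 in D1, beside 200 and 1365 at *Penk*. Those of *Bcat1* held 239 and 205 reads and those of *Vwc2l* 234 and 296, so likeness by percentile did not mean an equal contrast in reads.

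**Figure D2:**
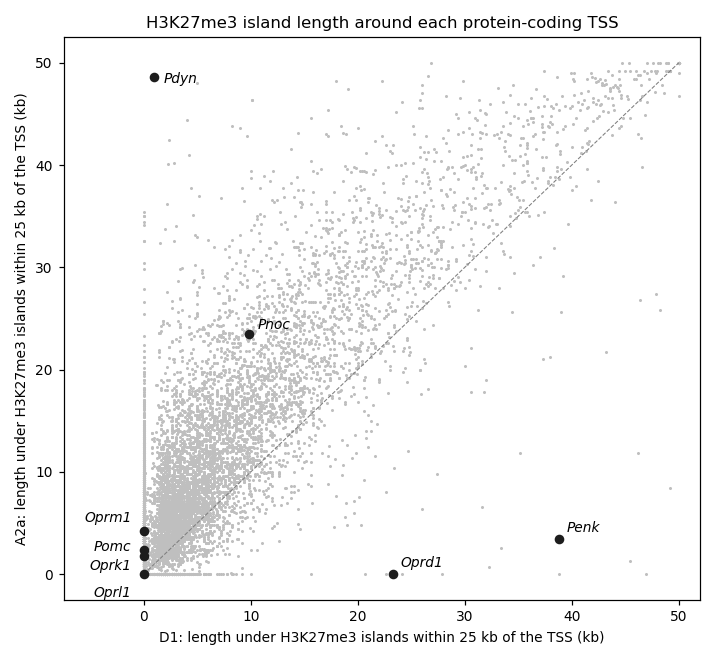
Length under H3K27me3 islands within 25 kb of the TSS in kb, D1 on the x axis and A2a on the y axis, for each of 21951 protein-coding genes (grey points) with the opioid genes in black and the line of equal length dashed. *Pdyn* lies at the upper left (48.6 kb in A2a, 1 kb in D1), and *Penk* (3.40 and 38.8 kb) and *Oprd1* (0 and 23.3 kb) lie at the lower right.

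*Pomc* (ENSMUSG00000020660.6, chr12:3954951-3960642, plus strand), the precursor of beta-endorphin and the melanocortins and best known from the hypothalamus and pituitary, had no H3K4me3 peak at its promoter in either list. A2a had an island of 2.40 kb with 255 reads (224.7 to 288.3) across the TSS, at 106.2 reads per kb denser than the other A2a promoter islands of the opioid genes but that of *Pdyn*. D1 had none, and the nearest D1 island lay 461.9 kb from the promoter. H3K4me3 was found instead in an exon near the 3′ end of the gene, with the summit 5.13 kb after the TSS in A2a (fold enrichment 8.79, −log10 q 52.2) and 5.17 kb after it in D1 (7.23 and 28.3). No annotated start of *Pomc* lies under this peak. A further peak about 26.8 kb downstream covers a start of *Efr3b*.

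*Pnoc* (the precursor of nociceptin, ENSMUSG00000045731.6, chr14:65400673-65425472, minus strand) carried H3K27me3 and no H3K4me3 in both cell types. Its promoter island held 630 reads over 7.60 kb in A2a (581.8 to 681.2) and 200 reads over 5 kb in D1 (173.2 to 229.7), and both began at −1.73 kb. The ratio of reads was 3.15, with 66.2% of genes lower, and that of length 1.52. A2a had 6 islands over 25.8 kb of the gene and its flanks, and D1 had 3 over 9.80 kb. The nearest H3K4me3 peak lay 42.7 kb from the promoter in A2a and 64.8 kb in D1. An island without an H3K4me3 peak was also the state of 4 of 5 markers of striatal interneurons (*Sst*, *Npy*, *Pvalb* and *Chat*) in both lists, beside the 12.1% and 9.71% of protein-coding genes given above.

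The sequences upstream of the starts were compared next, to set their CpG content beside the marks. RefSeq (GRCm38.p6) gave windows for 5 of the 8 genes. *Penk*, *Pnoc* and *Oprk1* had no entry. The 250 bases before each start are shown 5′ to 3′ on the strand of the gene, with CpG dinucleotides in capitals, for *Pdyn* (chr2:129699939-129700188, minus strand), whose start is under islands of very unequal extent, for *Oprd1* (chr4:132144487-132144736, minus strand), whose island was in D1 alone, for *Oprl1* (chr2:181714766-181715015, plus strand), which had no island, for *Pomc* (chr12:3954695-3954944, plus strand) and for the distal start of *Oprm1* (chr10:6758343-6758505, plus strand), both with an island in A2a alone, and for the proximal start of *Oprm1* (chr10:6788320-6788569, plus strand), which lay under H3K4me3. For the distal start of *Oprm1* only the 163 bases before the first annotated exon are shown.
Pdyn: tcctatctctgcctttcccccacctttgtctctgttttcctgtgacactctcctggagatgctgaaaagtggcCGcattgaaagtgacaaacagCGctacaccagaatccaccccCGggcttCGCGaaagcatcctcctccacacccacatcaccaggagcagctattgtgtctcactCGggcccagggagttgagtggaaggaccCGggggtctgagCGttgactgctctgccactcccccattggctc
Oprd1: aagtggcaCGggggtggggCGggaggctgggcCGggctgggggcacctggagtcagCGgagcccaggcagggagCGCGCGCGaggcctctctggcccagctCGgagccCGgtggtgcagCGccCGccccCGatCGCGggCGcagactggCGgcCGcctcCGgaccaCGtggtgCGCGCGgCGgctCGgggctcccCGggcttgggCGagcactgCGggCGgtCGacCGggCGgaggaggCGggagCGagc
Oprl1: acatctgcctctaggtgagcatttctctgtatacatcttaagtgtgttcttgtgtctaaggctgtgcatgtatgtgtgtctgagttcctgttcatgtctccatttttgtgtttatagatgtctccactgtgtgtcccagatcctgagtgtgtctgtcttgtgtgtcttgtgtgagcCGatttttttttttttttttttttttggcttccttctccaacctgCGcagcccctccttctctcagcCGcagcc
Pomc: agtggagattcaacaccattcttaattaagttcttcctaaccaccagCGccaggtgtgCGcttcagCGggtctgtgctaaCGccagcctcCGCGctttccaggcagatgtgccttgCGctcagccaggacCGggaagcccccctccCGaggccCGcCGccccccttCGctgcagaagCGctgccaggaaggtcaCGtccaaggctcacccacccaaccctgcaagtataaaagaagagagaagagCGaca
Oprm1, distal start: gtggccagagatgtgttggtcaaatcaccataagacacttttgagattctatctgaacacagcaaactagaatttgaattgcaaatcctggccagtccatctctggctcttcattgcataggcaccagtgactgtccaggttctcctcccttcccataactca
Oprm1, proximal start: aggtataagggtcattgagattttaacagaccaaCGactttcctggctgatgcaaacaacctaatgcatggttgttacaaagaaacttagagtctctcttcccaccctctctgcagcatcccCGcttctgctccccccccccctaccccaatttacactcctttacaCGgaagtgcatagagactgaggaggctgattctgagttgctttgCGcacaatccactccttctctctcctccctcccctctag

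The *Oprd1* window was the richest of these in CpG, with 34 CpGs and 80.0% G and C, and 96.5% of all 32851 windows of this length held fewer CpGs. *Pomc* had 15 CpGs, *Pdyn* 8, the proximal start of *Oprm1* 4, *Oprl1* 3 and the 250 bases at the distal start of *Oprm1* 0. Windows under an H3K4me3 peak had a median of 17 CpGs in each list, and windows without one a median of 3. *Pomc* was thus CpG-rich for a window without H3K4me3, and *Oprl1* and the proximal start of *Oprm1* were CpG-poor for windows with it. All 250 bases at *Oprd1* lay under the peak in both lists, and all of them under the island in D1 and none in A2a. At the *Pdyn* start shown, the D1 peak covered 200 of the 250 bases and the A2a peak none, since the A2a peak begins at −0.025 kb. The island covered all 250 in A2a and 62 in D1. At another *Pdyn* start, not shown (chr2:129698659-129698908), all 250 bases lay under the peak in both lists. The island there covered all 250 in A2a and 0 in D1.

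The cAMP response element TGACGTCA and its variant TGCGTCA were each searched on both strands, and neither is contained in the other. They were in 1.55% and 1.75% of all windows and in none of the 10 windows here. These 10 belong to 5 of the 8 opioid genes, without *Penk*, *Pnoc* and *Oprk1*, and are too few to tell from such low shares. The motif TATAAA, also searched on both strands, was in 12.4% of all windows and in 2 of these 10. It lay on the strand of the gene at *Pomc* and on the opposite strand at the most upstream start of *Oprl1*. Of the 10 windows, 2 at the proximal start of *Oprm1* overlap almost completely.

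**Figure D3:**
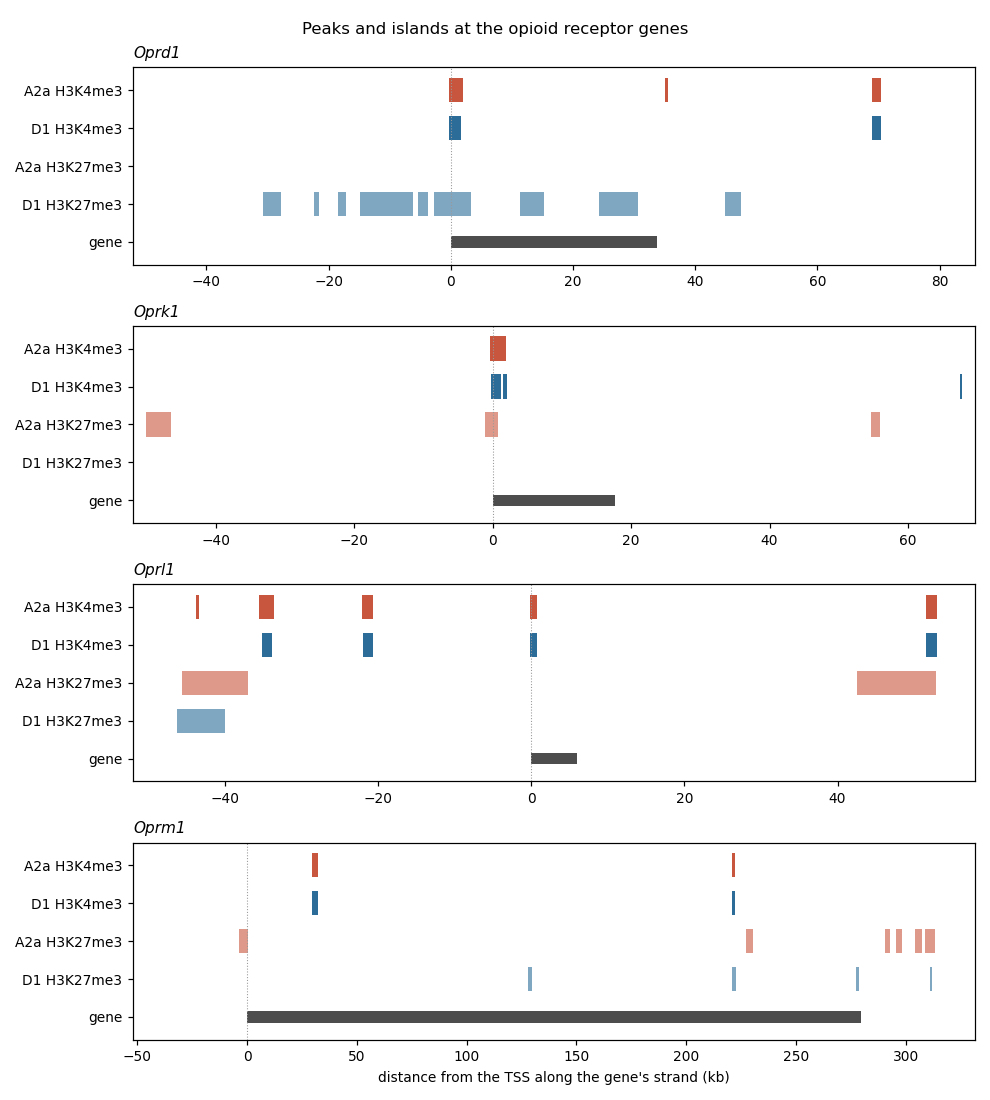
Peaks and islands around *Oprd1*, *Oprk1*, *Oprl1* and *Oprm1* by distance from the TSS in kb along the strand of the gene, coloured as in the map of the precursors and cut at the edge of the plot, with a longer axis for *Oprm1*. Islands surround *Oprd1* in D1 alone (9 islands), and the H3K4me3 peaks at *Oprm1* lie inside the gene.

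*Oprd1* (delta opioid receptor, ENSMUSG00000050511.1, chr4:132110726-132144486, minus strand) had H3K4me3 in both cell types and H3K27me3 in D1 alone. The D1 promoter island was 6.00 kb long, held 294 reads (261.4 to 329.6) and had more reads than 90.0% of the D1 islands. With 8 more on either side, D1 had 34.6 kb under islands with 1288 reads over the gene and its flanks, 25.9% of that span. In A2a none was called there, and the nearest island lay 272.7 kb from the promoter. The list ratio runs the other way, since A2a islands held more reads for most genes. Within 25 kb of the TSS the lengths were 0 kb in A2a and 23.3 kb in D1, and 13 of 21951 genes, *Oprd1* included, had a difference this low or lower.

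The *Oprd1* peak in A2a was 2.41 kb long with a fold enrichment of 5.66 and a −log10 q of 125.3, above 71.4% of its list and the highest of the opioid genes. In D1 it was 2 kb long with a fold enrichment of 4.86 and a −log10 q of 31.6, above 41.5% of its list and the lowest of the 5. The ratio of −log10 q was 3.96, and 98.9% of genes with a peak in both lists had a lower one. The fold enrichments differed less, by a ratio of 1.16 with 78.5% of genes lower. The island covered the D1 peak entirely. A2a alone had a small peak 35.2 kb after the TSS, past the end of the gene (0.338 kb, −log10 q 6.41).

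*Oprk1* (kappa opioid receptor, ENSMUSG00000025905.13, chr1:5588466-5606131, plus strand) had an H3K4me3 promoter peak in both lists and a short island in A2a. The peak was 2.29 kb long in A2a (fold enrichment 6.72, −log10 q 100.4) and 1.55 kb long in D1 (6.13 and 70.2), above 62.0% and 61.6% of the respective lists. D1 had a second peak of 0.579 kb from 1.48 to 2.06 kb, with its summit in an exon 1.53 kb after the TSS, and the single A2a peak ended at 1.91 kb. The A2a island was 1.80 kb long with 168 reads (143.6 to 195.4), above 34.5% of its list by reads and shorter than all but 8.19% by length, and it covered 48.7% of the peak. In D1 the nearest island lay 188.1 kb from the promoter. The genes most like *Oprk1* over the 4 values were *Ddx10*, *Sh3pxd2a* and *Syt6*, at 0.885, 1.20 and 1.20 percentile points, each with an island in A2a and none in D1.

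*Oprl1* (nociceptin receptor, ENSMUSG00000027584.16, chr2:181715016-181720985, plus strand) carried H3K4me3 alone in both cell types. Its peak was short, 1 kb in A2a and 0.959 kb in D1, and the most enriched of the opioid promoters by fold, 9.70 and 9.13, above 84.5% and 83.9% of the lists. Its −log10 q was 76.1 in A2a and 48.8 in D1, a ratio of 1.56 beside the median of 1.55. All 11 annotated transcript starts of the gene lay under the peak in each list. The nearest island lay 35.0 kb from the promoter in A2a and 38.0 kb in D1, over *Sox18*.

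*Oprm1* (mu opioid receptor, ENSMUSG00000000766.18, chr10:6758506-7038198, plus strand) is the longest of these genes at 279.7 kb, and its result depends on which start is read. At the annotated 5′ end, the distal start, neither list had an H3K4me3 peak, and A2a had an island of 4.20 kb with 199 reads (172.3 to 228.7) that reached 0.294 kb past the TSS. In D1 the nearest island lay 126.9 kb away. At the proximal start, both lists had a peak from 29.8 kb after the TSS, 2.31 kb long in A2a (fold enrichment 5.04, −log10 q 70.0) and 2.33 kb long in D1 (4.94 and 52.1). This peak covered 7 of the 9 annotated transcript starts. Neither list had an island at the proximal start. Counted over all annotated starts together, *Oprm1* had both marks in A2a and H3K4me3 alone in D1. In A2a the marks lay at different starts, the island at the distal and the peak at the proximal one. The difference between the lists was thus at the distal start only.

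Another intronic peak of *Oprm1*, with a summit 221.9 kb after the TSS in A2a and 221.5 kb after it in D1, covers a start of *Ipcef1*, so it cannot be assigned to *Oprm1*. D1 had an island of 2 kb with 68 reads over the same start. Elsewhere in the gene and its flanks the islands were short, at most 4.80 kb in A2a and 2 kb in D1.

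**Figure D4:**
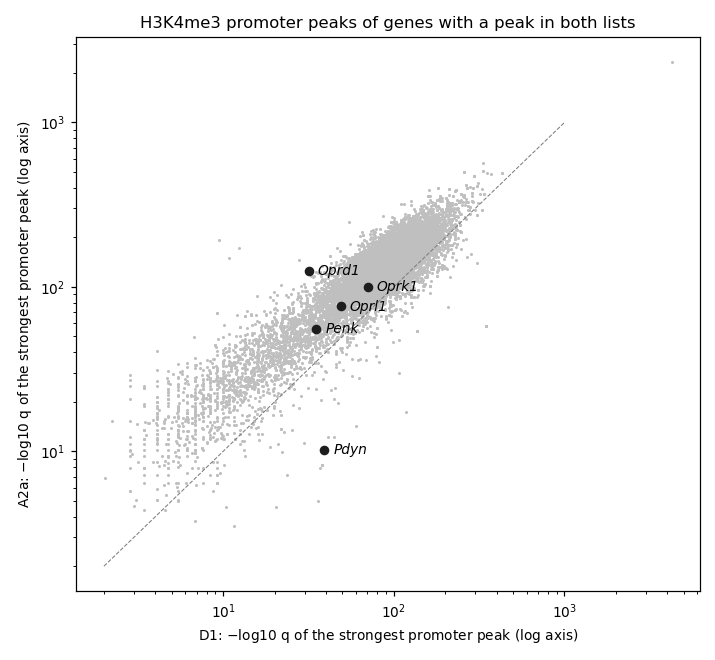
The −log10 q-value of the strongest H3K4me3 promoter peak, D1 on the x axis and A2a on the y axis, both log axes, for 12204 genes with a promoter peak in both lists (grey) with the 5 opioid genes that had one in black and the line of equal values dashed. *Pdyn* lies below the line (10.2 in A2a, 39.0 in D1), and *Oprd1* lies above the main cloud (125.3 and 31.6).

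Among the 5 genes with a promoter peak, −log10 q in A2a fell in the order *Oprd1* (125.3), *Oprk1* (100.4), *Oprl1* (76.1), *Penk* (55.7) and *Pdyn* (10.2). In D1 the order was *Oprk1* (70.2), *Oprl1* (48.8), *Pdyn* (39.0), *Penk* (35.1) and *Oprd1* (31.6). By −log10 q *Oprd1* thus moved from the first place to the last, and *Oprk1*, *Oprl1* and *Penk* kept their order among themselves. Fold enrichment gave another order, in A2a *Oprl1* (9.70), *Oprk1* (6.72), *Oprd1* (5.66), *Pdyn* (5.08) and *Penk* (3.06). In D1 it was *Oprl1* (9.13), *Oprk1* (6.13), *Pdyn* (5.96), *Oprd1* (4.86) and *Penk* (3.67). The median percentile of these 5 peaks was 54.6 in A2a and 45.1 in D1, and that of all genes with a promoter peak was 72.1 and 71.0. By fold enrichment the medians were 5.66 and 5.96 for the opioid genes and 7.65 and 7.52 for all genes with a peak.

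**Figure D5:**
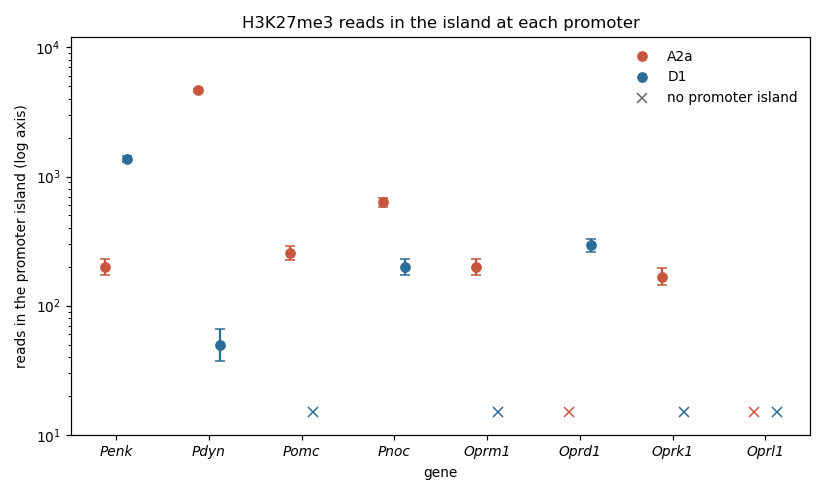
Reads in the H3K27me3 island at the promoter of each opioid gene (log axis), A2a in red and D1 in blue, with exact 95% Poisson intervals, and a cross at an arbitrary height where no promoter island was called. *Penk* has more reads in D1 and *Pdyn* and *Pnoc* have more in A2a, the list whose shared islands held a median of 2.60 times the reads, and 4 genes have an island in 1 list.

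The promoter islands held from 168 reads (*Oprk1*) to 4641 reads (*Pdyn*) in A2a and from 50 (*Pdyn*) to 1365 (*Penk*) in D1. Their medians were 227.5 reads and 3.80 kb over the 6 genes in A2a, and 247.0 reads and 5.50 kb over the 4 in D1. Over all protein-coding genes with a promoter island the medians were 473.0 reads and 6.20 kb in A2a and 221.0 reads and 5 kb in D1. Over the 3132 genes with a promoter island in both lists, A2a held a median of 2.60 times the reads. Divided by this factor, the A2a islands at *Pomc*, *Oprm1* and *Oprk1* come to 98.1, 76.5 and 64.6 reads. In the D1 list 46.1%, 24.8% and 12.1% of islands held fewer. Multiplied by it, the D1 island at *Oprd1* comes to 764.4 reads, and 92.0% of the A2a islands held fewer. Whether the other list would call an island with such a count was not tested. The part of this list-wide difference in reads in the islands called in A2a alone was not tested.

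Most other genes of the opioid pathway carried H3K4me3 at the promoter. Of 31 genes for peptide processing, peptide degradation, receptor regulation, G proteins and effectors, 28 had an H3K4me3 promoter peak in each list, beside 58.2% of protein-coding genes in A2a and 55.8% in D1. An island was present at 5 of the 31 in A2a and at 4 in D1, beside 21.6% and 15.3%, and both marks at 4 in each list, beside 9.53% and 5.56%. The combination of marks differed between A2a and D1 at 1 of the 31 (10.8% of protein-coding genes), *Mme*, which encodes neprilysin, an enkephalin-degrading peptidase, with an island of 4.20 kb and 211 reads in A2a and neither mark in D1. All 6 processing genes, among them the convertase genes *Pcsk1* and *Pcsk2*, and all 9 genes of receptor regulation had a promoter peak in both lists. Both marks lay at *Pcsk1*, *Grk3*, *Kcnj3* and *Kcnj6* in both lists. In the other sets examined, the combination differed at 0 of 5 dopamine receptor genes, 1 of 5 tachykinin genes (*Tac2*), 2 of 4 A2a neuron markers, 2 of 6 D1 neuron markers, 0 of 6 projection neuron markers, 1 of 4 astrocyte, 2 of 4 microglial, 2 of 5 oligodendrocyte and 0 of 5 interneuron markers, beside 4 of 8 for the opioid genes. These sets are small, and the difference between them was not tested.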

How the data were processed

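The authors mapped CnR reads to mm10 with Bowtie2 (version 2.1.0), sorted them with SAMtools (version 0.1.19, both per the labels), kept a mapping quality of at least 20 and removed duplicates. For H3K4me3 (Abcam antibody) the authors ran MACS2 and kept peaks up to a q-value of 0.01. Their deposited values are a fold enrichment, a ratio to the local background within the pooled library, a −log10 q-value and a summit position. For H3K27me3 (Active Motif antibody) the authors ran SICER (window 200 bp, gap 600 bp, false discovery rate 0.01) against a control that is not named in the sources used here. The deposited value of an island is its count of reads, not normalized. Library depths are not known from the lists, and no normalization links the A2a and D1 values. The other 20 samples were not analysed here.

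Genes and TSSs were those of GENCODE vM21, in mm10 coordinates counted from 1. Promoter windows took an overlap of at least 1 bp. Percentiles give the share of a list, or of the genes compared, with a lower value. Likeness was the mean absolute difference of 4 percentiles per promoter. All 8 genes are described in every list. Genes of the pathway list are named where both marks were present or the marks differed, and a few others as examples. The genes and lists were chosen with earlier results of these data known. As each list pools its replicates, no test was made. Alternatives covered the promoter window, the TSS, the overlap, thresholds, list sizes, island merging and the measure of H3K27me3. Upstream windows came from RefSeq, GRCm38.p6. The interval procedures were tested on simulated data. Scripts ran in Python 3.11.15 with numpy 2.4.6 and scipy 1.17.1, and figures were drawn with matplotlib 3.10.9.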

Additional observations from a re-analysis of the deposited data

How the results depend on the processing

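The 18 values were recomputed under 77 alternatives. Of these, 56 left the value within its limits (1.5 times for a count of genes, the counting interval otherwise), 20 moved it and 1 reversed it. No alternative turned the direction of the island length at *Pdyn*. At *Penk* the log2 ratio of A2a to D1 was −3.51 by length within 25 kb and 0.15 by reads per kb, because the deposited densities were nearly equal there while A2a islands were denser over the list. By length within 10 kb and within 50 kb the ratio was −2.56 and −4.24 at *Penk* and 4.32 and 6.32 at *Pdyn* (5.60 within 25 kb), and with islands within 5 kb merged it was −3.78 at *Penk*. By reads it was 7.70 and by reads per kb 1.26 at *Pdyn*. With islands of at least 2 kb no ratio could be had for *Pdyn*, whose D1 island is shorter. This minimum also left *Oprk1* without an island in A2a and *Pdyn* without one in D1.

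The number of opioid genes with neither mark in D1 was 2, and it was 1 with a promoter of 5 kb to each side, which takes in the exon peak of *Pomc*, and 1 with any transcript start, which takes in the proximal start of *Oprm1*. The median percentile of the promoter peaks in A2a was 54.6, and 37.1 by fold enrichment, 51.6 with the wider promoter and 53.7 with any transcript start. In D1 it was 45.1, and 44.2 and 47.6 in the last 2 of these. Over all annotated genes in place of protein-coding genes, the share with a promoter peak was 30.1% in A2a and 28.6% in D1, with an island 19.3% and 13.1%, and with both marks 4.96% and 2.87%.

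No paired analysis was possible because each list pools its replicates, and for the same reason leaving out each replicate in turn was not run. Depth is unknown, so a mark not called in a list is not shown to be absent. The lists give called regions only.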

Other observations

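Some regions near the opioid genes belong to their neighbours. Upstream of *Oprl1*, an island over *Sox18*, a transcription factor gene of endothelial cells, held 818 reads over 8.60 kb in A2a, and 237 reads over 6.20 kb in D1. Downstream of it, an island over *Myt1* of 10.2 kb with 531 reads was called in A2a, and none in D1, while the *Myt1* peak was called in both (−log10 q 139.4 and 78.3). Between them, *Rgs19*, a regulator of G protein signalling that is among the pathway genes, had a peak in both lists (61.9 and 30.5) and no island, as *Oprl1* did. Downstream of *Oprd1*, the peak over *Epb41* had a −log10 q of 168.9 in A2a and 106.0 in D1, a smaller ratio than at *Oprd1* itself. The differences between A2a and D1 at these neighbours were not tested.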
